A study of Mus musculus with 9 samples.

Results

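The G1/S and DNA replication genes examined here are 49 genes, of 47643 in the count table, whose products license replication origins, unwind and copy DNA, supply nucleotides, rebuild chromatin behind the fork or start S phase. They were taken by symbol from a list that uses no measured value, although this list and the lists compared with it were drawn up with earlier results of these data known, and all 49 passed the filter on low counts that left 18205 genes. Their RNA was measured by RNA sequencing in long-term hematopoietic stem cells (LT-HSCs), sorted as donor-derived Lin-cKit+Sca1+Flk2-CD48-CD150+ bone marrow cells. There were 9 libraries from mice of the C57BL/6 strain, 3 for each genotype. The WT group was WT;Mx1-Cre. The δKO group was Pik3ca lox/lox;Pik3cb lox/lox;Pik3cd-/- without Cre, so it lacked P110δ in the germline and kept P110α and P110β. The TKO group carried the same alleles together with Mx1-Cre, which removes the floxed exons of Pik3ca and Pik3cb. TKO therefore differed from WT in all 3 isoforms, and from δKO in P110α, P110β and also in the presence of Mx1-Cre, which cannot be told apart here. Whole donor marrow had been transplanted into irradiated recipients aged 6 to 8 weeks. The age of the donors is given as 4 to 6 weeks in one place of the study's text and as 6 to 8 weeks in the general methods for transplantation. All groups received pIpC, a double-stranded RNA that induces the Mx1 promoter in blood cells and in other tissues, as 2 injections of 250 μg given 48 hours apart, and marrow was taken 4 weeks later. The methods state that cells of the 7 recipients of a group were pooled before staining, but the 3 libraries of a group were not portions of 1 pool. Xist, the RNA of the inactive X chromosome of female cells, was at 5340 CPM in WT replicate 2 and at 32.1 and 45.6 CPM in the other WT libraries. It was at 6390 and 4910 CPM in δKO replicates 1 and 2 and at 59.5 CPM in the third, and at 4160 and 3230 CPM in TKO replicates 1 and 2 and at 36.5 CPM in replicate 3. Every group thus mixed libraries of high and low Xist, in unequal numbers. How many animals stand behind a library is not given in the sources used here, so the p-values measure the spread between these libraries, which may be partly technical.

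Most LT-HSCs are quiescent, and a cell that leaves quiescence passes from G1 into S phase when cyclin E with its kinase and the E2F transcription factors turn on the genes of DNA synthesis. Origins are licensed in G1, when the origin recognition complex, Cdc6 and Cdt1 load the ring of Mcm2 to Mcm7 on DNA. In S phase Cdc45 and the GINS complex join that ring to form the active helicase, primase and polymerases copy the strands on the Pcna clamp, and Fen1 and Lig1 join the lagging strand. Genes of mitosis are switched on later, in G2, by other promoter elements. Class IA PI3K lies downstream of growth factor and cytokine receptors that promote entry into the cycle.

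Promoter letters were not used to choose the genes. A RefSeq window (build GRCm38.p6) of 250 bases before to 50 bases after the transcription start was found for 41 of the 49 genes and for 11295 of the tested genes, 1 window per gene. The E2F-type word TTTNNCGC, searched on both strands, was present in 15 of the 41 windows (36.6%), against 8.26% of all windows. It was absent from 26 of the 41, those of Cdc45, Pcna, E2f1, Ccne1, Rrm1 and Rrm2 among them. The start used for E2f1 lay 466 bases from the annotated 5' end of the gene, which its window did not reach. Special cases of the word, TTTCCCGC and TTTGGCGC, were present in 17.1% and 14.6% of the members' windows, against 2.05% and 0.983% of all windows. The windows were of similar base composition, with a median of 61.3% G and C in the members and 60.3% in all windows, and with a median of 24 and 20 CG pairs. In 20 mitosis genes, of which 18 had a window, the E2F-type word was in 1 window (5.56%). There CCAAT was in 16 (88.9%) and TTTGAA, a word of promoters active in G2 and M phase, in 13 (72.2%). For the members these shares were 61% and 12.2%, and for all windows 38.4% and 12.3%. TTCGAA was in 4.88% of the members' windows and in 2.05% of all windows. Licensing genes held the E2F-type word most often, in 7 of 9 windows, and the polymerases and primase in 4 of 7. A match describes the letters and is no evidence of binding. The 250 bases before the start are shown for the licensing genes Mcm5 (chr8:75109259-75109508, plus strand) and Mcm6 (chr1:128359706-128359955, minus strand), the helicase gene Gins3 (chr8:95633309-95633558, plus strand) and the polymerase gene Pola1 (chrX:93632156-93632405, minus strand). They are the 4 genes with values by library below whose 250 bases hold the E2F-type word, and capitals mark TTTNNCGC or its reverse complement. The pair of matches in Mcm5 overlap, as do 2 of the 3 in Mcm6, so each such pair appears as 1 run of capitals.
Mcm5: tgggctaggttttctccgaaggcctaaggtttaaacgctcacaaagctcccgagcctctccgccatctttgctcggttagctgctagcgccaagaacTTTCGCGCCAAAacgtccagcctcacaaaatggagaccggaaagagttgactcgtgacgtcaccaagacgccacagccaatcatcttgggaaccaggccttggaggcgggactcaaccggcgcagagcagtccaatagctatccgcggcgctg
Mcm6: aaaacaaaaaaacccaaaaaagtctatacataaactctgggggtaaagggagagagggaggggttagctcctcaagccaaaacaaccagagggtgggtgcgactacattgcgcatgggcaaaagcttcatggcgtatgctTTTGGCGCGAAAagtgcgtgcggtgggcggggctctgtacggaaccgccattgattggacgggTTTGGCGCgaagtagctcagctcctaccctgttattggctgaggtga
Gins3: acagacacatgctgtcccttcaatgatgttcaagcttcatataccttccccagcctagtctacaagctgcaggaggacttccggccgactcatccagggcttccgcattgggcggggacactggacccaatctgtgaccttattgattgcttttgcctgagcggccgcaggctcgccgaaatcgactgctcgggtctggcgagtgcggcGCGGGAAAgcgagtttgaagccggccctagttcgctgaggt
Pola1: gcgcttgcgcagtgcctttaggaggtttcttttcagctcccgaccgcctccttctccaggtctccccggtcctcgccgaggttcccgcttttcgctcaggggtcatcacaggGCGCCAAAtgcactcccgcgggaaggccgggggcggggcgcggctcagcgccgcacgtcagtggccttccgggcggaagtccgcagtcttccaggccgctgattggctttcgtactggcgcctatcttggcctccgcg

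The libraries held 31300343 to 60386097 counts on genes. At this depth every member other than Fen1 had at least 13 counts in every library. The methods state that cDNA was amplified before sequencing. How much of the spread between libraries comes from counting or from the amount of RNA put in was not tested. Levels are given as CPM, counts relative to the library total, scaled with TMM factors. In the δKO group, replicate 1 and the library without a matching replicate number stood apart, with 18180 and 18500 genes detected against 19703 to 22703 in the other 7 libraries. The coefficient of variation of a member among the 3 libraries of a genotype was, in the median, 15.9% in WT. It was 34.4% in δKO and 21.3% in TKO. Over all genes the medians were 32.9%, 69.2% and 42.7%. δKO replicate 1 had the highest value of the 9 libraries for 20 members (40.8%) and the lowest for 13 (26.5%), against 23.7% and 29% of all genes, so that medians over the members against δKO, and single values that it moves most, are also given without it. Pik3cb, a floxed gene, had 44.6 to 63.6 CPM in WT, 33.2 to 101 CPM in δKO and 25.5 to 33.9 CPM in TKO. Pik3cd had 98.2 to 139 CPM in WT and 38.5 to 91.2 CPM in both other groups together. Pik3ca ranged from 41.3 to 88.2 CPM and overlapped between all groups, and since counts were summed over the whole gene they do not report on loss of single exons.

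Replication genes were well expressed in all groups. Of the 49 members, 16 had a mean of at least 100 CPM over the 9 libraries and 3 had a mean below 10 CPM (Fen1, Ccne1 and Rpa3). Per kilobase of exon, the highest levels were those of the clamp gene Pcna, at 156 CPM per kb, and of the maintenance DNA methyltransferase gene Dnmt1, at 102. The cyclin gene Ccne1, which drives entry into S phase, had 1.2 CPM per kb and Ccne2 had 3.6. The summed level of the members was 4541 to 5348 CPM in WT, 5080 to 5653 CPM in δKO and 4198 to 4997 CPM in TKO, so TKO overlapped WT and lay just below δKO. In bulk RNA, fewer cells of a kind and less RNA per cell cannot be told apart.

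**Figure D1:**
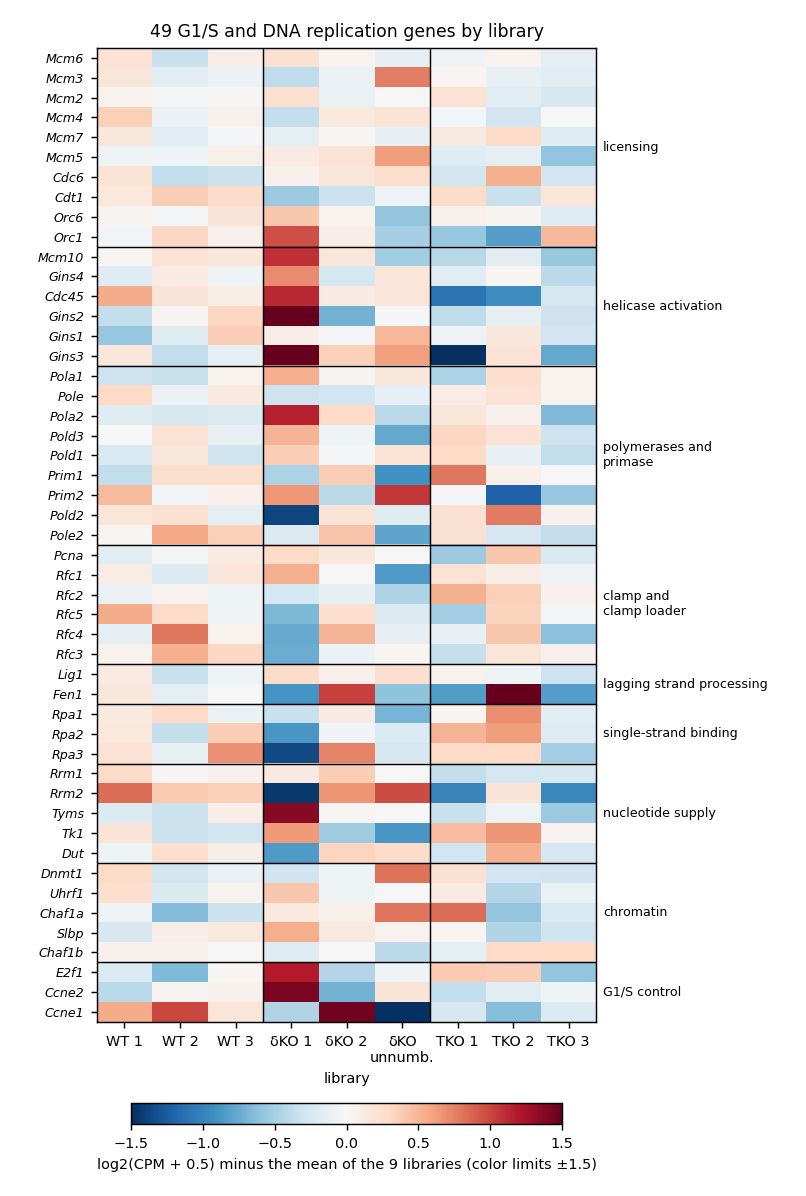
Heat map of the 49 genes (rows, by role and then by mean level) in the 9 libraries (columns). Color gives log2(CPM + 0.5) minus the gene's mean over the libraries, clipped at the limits of the scale. The WT columns are pale, and δKO 1 has the most extreme colors in both directions. The TKO columns are mixed, except that TKO 1 and TKO 3 are low in the helicase activation block.

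TKO and WT LT-HSCs differed little in these genes. No member was called in TKO against WT by edgeR's quasi-likelihood test, for which a call needs a change of over 2-fold and a Benjamini-Hochberg adjusted p below 0.05. In this comparison 0.00549% of all genes were called higher and 0% lower. DESeq2 also called 0 members, both on all 9 libraries, where it called 0.466% of genes, and on the 6 libraries compared, where it called 2.12%. At an unadjusted p under 0.05, edgeR found 1 member, Cdc45, lower in TKO, which is 2.04% of the list and below the 4.19% of all genes (2.5% lower and 1.68% higher). DESeq2 found 2 members on all 9 libraries (5.62% of all genes) and 5 on the 6 libraries compared (9.93%). The median log2 fold change of the members was -0.066, against 0.017 for all genes, and 31 of 49 were below 0 (63.3%, against 48.8% of all genes). Without TKO replicate 3 the median was -0.0010, against -0.015 for all genes, with 25 of 49 below 0. For 41 members the fitted log2 fold change was smaller than 0.5 in either direction. The 95% interval of a member had a median half-width of 0.79 on the log2 scale, and for 28 of the 49 the interval lay inside 2-fold in both directions. For the other 21 a 2-fold difference lay within the interval. In 6 members all TKO libraries were below all WT libraries and in 1 they were above, which is 12.2% and 2.04% of the list, against 7.47% and 6.88% of all genes. An exact permutation test of 3 against 3 libraries cannot give a two-sided p below 0.1.

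Against δKO the members of TKO had a median below that of all genes, with no call, and this rested on TKO replicate 3. The median log2 fold change was -0.22, against -0.055 for all genes, and 32 of 49 were below 0 (65.3%, against 52.8%). edgeR called 0 members (0% of all genes in either direction) and DESeq2 called 0 on all 9 libraries (2.01% of genes) and 0 on the 6 libraries compared (1.05%). At an unadjusted p under 0.05 edgeR found 6 members lower (Cdc45, Mcm5, Prim2, Gins3, Tyms and Rrm1) and 1 higher (Rfc2), together 14.3% of the list against 10.2% of all genes (5.56% lower and 4.6% higher). Without TKO replicate 3 these were 3 of 49, Cdc45 lower with Rfc2 and Rpa2 higher, against 7.43% of all genes. Without δKO replicate 1 they were 7, with Rrm2 and Tk1 in the place of Gins3 and Tyms, against 12.2% of all genes. DESeq2 found 7 members on all 9 libraries (11.5% of all genes) and 3 on the 6 compared (8.57%). In 7 members all TKO libraries were below all δKO libraries and in 2 they were above, which is 14.3% and 4.08% of the list, against 4.74% and 6.98% of all genes. Without δKO replicate 1 the median of the members was -0.093, against 0.073 for all genes. Without TKO replicate 3, the library with the lowest mean of the members, it was -0.081, against -0.078 for all genes, so that the members no longer stood below them. With the Xist level of each library as a covariate it was -0.21, against -0.010 for all genes, and in TKO against WT it was -0.14, against -0.0030.

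δKO and WT were close in the median of the members. It was 0.049, against 0.046 for all genes, and 21 of 49 were below 0 (42.9%, against 47.2% of all genes). With upper-quartile scaling it was -0.095, where the median of all genes was -0.104, and without δKO replicate 1 it was -0.046, as in all genes, with 26 of 49 below 0. edgeR called 0 members (0.00549% of all genes higher and 0% lower) and DESeq2 called 0 (0.727% of genes on all 9 libraries and 0.754% on the 6 compared). At an unadjusted p under 0.05 edgeR found 0 members, against 7.01% of all genes (3.36% lower and 3.65% higher). DESeq2 found 1 on all 9 libraries (8.65% of all genes) and 1 on the 6 compared (7.83%). In 4 members all δKO libraries were below all WT libraries and in 3 they were above, against 7.39% and 4.13% of all genes. The 3 comparisons share groups, so their values are not independent of each other.

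**Figure D2:**
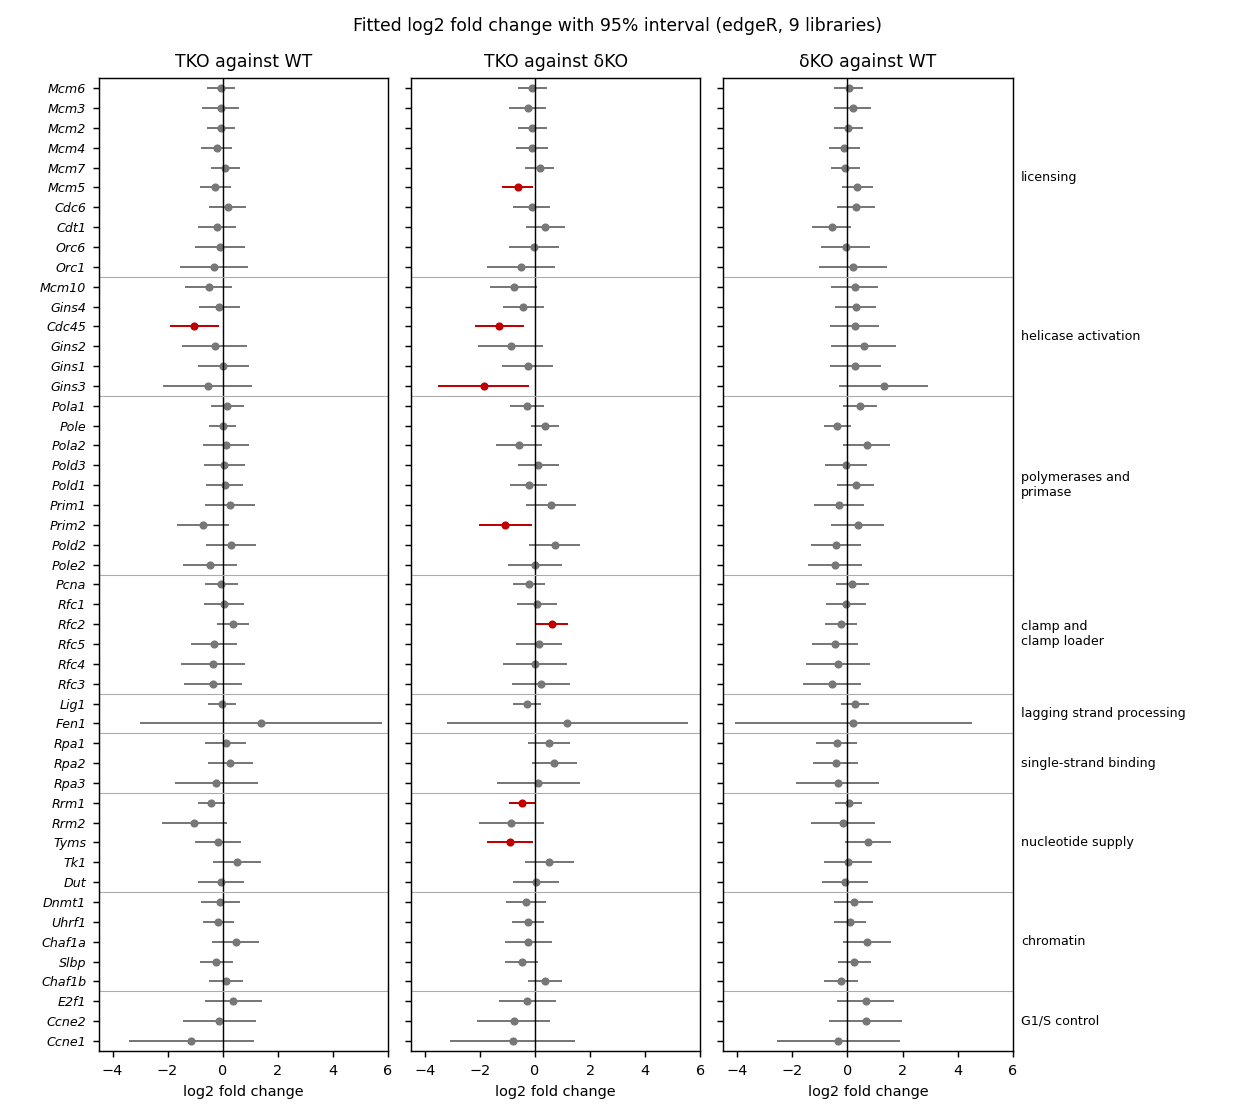
Fitted log2 fold change (x axis) of each of the 49 genes (y axis, by role) in the 3 comparisons, with points for the estimate and lines for the 95% interval from edgeR on 9 libraries. Red marks an unadjusted p under 0.05, which 1 gene reached in TKO against WT, 7 in TKO against δKO and 0 in δKO against WT. The interval of Fen1 is the widest.

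The licensing genes had small differences in every comparison. In TKO against WT the 10 fitted log2 fold changes ran from -0.32 (Orc1, of the origin recognition complex) to 0.18 (Cdc6, a loader of the Mcm ring), with a median of -0.081. Mcm6 (chr1:128331590-128359664, minus strand, mm10), the ring subunit with the highest CPM, had 299, 204 and 276 CPM in WT, 303, 267 and 237 in δKO, with 249, 268 and 233 in TKO. The Mcm6 values of all groups overlapped. Mcm7 varied least between libraries, with a highest value 1.38 times the lowest, and Mcm2 was next at 1.39 times. Mcm5 (chr8:75109569-75128439, plus strand), a further ring subunit, had 123, 123 and 136 CPM in WT, 141, 149 and 199 in δKO, with 114, 118 and 85.3 in TKO. All TKO libraries were below all others for Mcm5, with a log2 fold change of -0.63 against δKO (SE 0.24, adjusted p = 0.465) and of -0.27 against WT. Mcm6, whose promoter above also holds the E2F-type word, had -0.10 and -0.056. The remaining ring genes Mcm2, Mcm3, Mcm4 and Mcm7 had TKO log2 fold changes from -0.22 to 0.086 against WT and from -0.27 to 0.17 against δKO, and Mcm3 was highest in the δKO library without a number, at 335 CPM against 151 to 223 CPM in the other 8. Orc1 and Orc6, of the origin recognition complex, ran from 7.79 to 28.2 CPM and from 14.0 to 28.5 CPM, and per kilobase of exon they were the lowest of the 10 licensing genes, at a mean level of 4.37 and 8.80 CPM per kilobase over all libraries. Cdt1, which loads the ring and is destroyed in S phase, had 27.3 to 37.9 CPM in δKO and 44.7 to 51.8 CPM in WT without overlap (log2 fold change -0.58, SE 0.30, adjusted p = 0.7), and TKO at 31.7 to 48.5 CPM overlapped both.

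The helicase activation genes had the lowest median of the 9 role groups in both TKO comparisons when all libraries were used, an order that did not hold against δKO without single libraries. The median was -0.41 on the log2 scale in TKO against WT, with 5 of 6 genes below 0, and -0.83 in TKO against δKO, with 6 of 6 below 0. Cdc45 (chr16:18780447-18811987, minus strand), which turns the loaded ring into the active helicase, had 47.1, 36.4 and 34.1 CPM in WT, 70.3, 34.6 and 36.0 in δKO, with 14.6, 16.4 and 26.5 in TKO. All 3 TKO libraries were below all 6 others. The log2 fold change was -1.03 against WT (SE 0.40, unadjusted p = 0.0231, adjusted p = 1.0, edgeR) and -1.29 against δKO (SE 0.40, unadjusted p = 0.00716, adjusted p = 0.465, edgeR). Over 19 alternative fits the adjusted p of Cdc45 ran from 0.0579 to 1.0 against WT and from 0.0552 to 0.946 against δKO, and the log2 fold change stayed between -1.34 and -0.87 and between -1.60 and -0.88. In 5.96% of its exon bases Cdc45 overlaps Ufd1 on the opposite strand. Its promoter window held 0 matches to the E2F-type word.

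Gins3 (chr8:95633453-95645060, plus strand), a subunit of GINS, was a low gene, at 9.15, 6.11 and 7.33 CPM in WT. It had 33.1, 10.5 and 12.6 CPM in δKO, with 1.57, 9.33 and 4.53 CPM in TKO. The TKO libraries were all below the δKO libraries but overlapped WT, and δKO replicate 1 was the highest by far. The log2 fold change against δKO was -1.86 (SE 0.74, adjusted p = 0.465) and -1.17 without δKO replicate 1, where its unadjusted p was no longer under 0.05. Mcm10, which helps to fire the assembled helicase, had 55.3, 63.4 and 61.0 CPM in WT, 117, 61.1 and 37.7 in δKO, with 40.8, 48.5 and 36.4 in TKO. All TKO values of Mcm10 were below all WT values, and the δKO values overlapped both. The remaining GINS genes had log2 fold changes from -0.30 to 0.021 against WT and from -0.88 to -0.26 against δKO. Gins2 shares 67.3% of its exon bases with Gse1 on the opposite strand, and since the strand setting of the counting is not given in the sources used here, its values are uncertain. The block rested in part on 1 library: the mean centered log2 CPM of the 6 genes was 1.096 in δKO replicate 1 and -0.059 to 0.15 in the other δKO and the WT libraries. In the 3 TKO libraries it was -0.69, -0.14 and -0.43. Without δKO replicate 1 the median of the group against δKO was -0.28, with 5 of 6 genes below 0, and those of the chromatin and nucleotide supply genes were lower, at -0.33 and -0.32. Without TKO replicate 3 it was -0.77, and that of the 3 G1/S control genes was lower, at -0.85. Against WT, a comparison that does not hold δKO replicate 1, the helicase median was -0.345 without TKO replicate 3 and -0.323 without WT replicate 3.

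**Figure D3:**
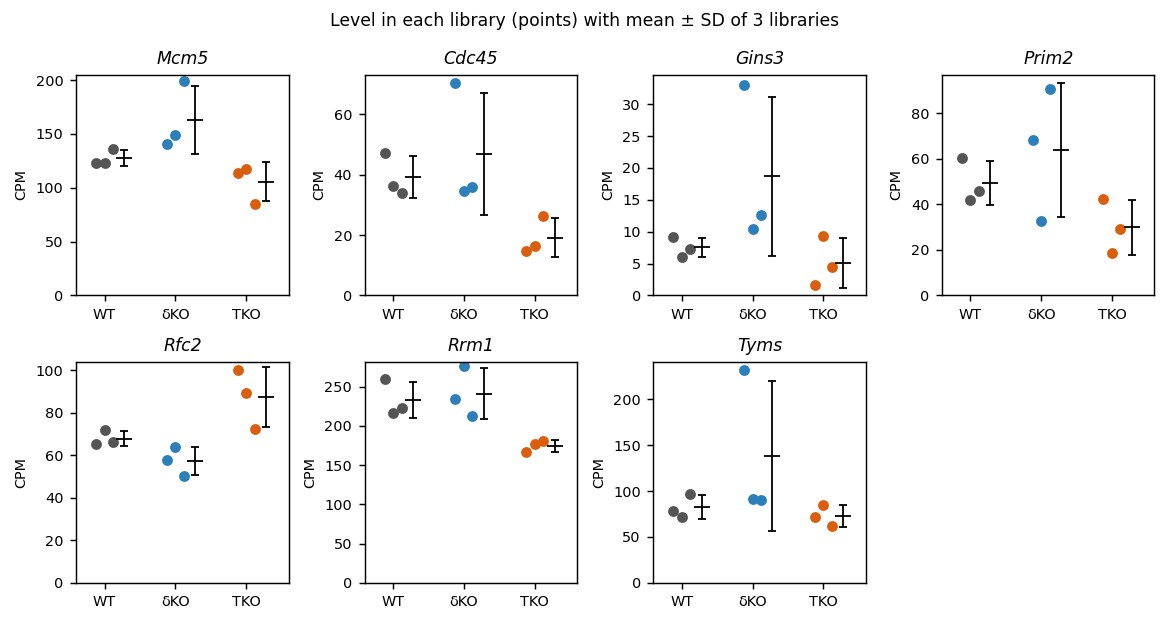
CPM in each library (points, y axis from 0) of the 7 genes with an unadjusted p under 0.05 in any comparison, with the mean and SD of the 3 libraries of each genotype beside them. TKO points lie below all others for Mcm5, Cdc45 and Rrm1 and above all others for Rfc2. In Gins3 and Tyms 1 δKO library lies far above the rest.

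The polymerases and primase showed no common direction. The median of their log2 fold changes in TKO against WT was 0.069, with 3 of 9 genes below 0, and 5 of 9 were below 0 in TKO against δKO. Pola1 (chrX:93304767-93632155, minus strand), the catalytic subunit of polymerase alpha, which extends primers, had 128, 126 and 165 CPM in WT, 233, 164 and 180 in δKO, with 115, 190 and 165 in TKO, with overlap throughout. Prim2 (chr1:33453810-33669795, minus strand), the regulatory subunit of primase, had 60.5, 42.1 and 45.9 CPM in WT, 68.5, 32.6 and 90.8 in δKO, with 42.6, 18.5 and 29.1 in TKO. One TKO library lay within the WT values and within the δKO values. The log2 fold change of Prim2 was -1.09 against δKO (SE 0.42, adjusted p = 0.465) and -0.72 against WT. Its catalytic partner Prim1 had 0.57 and 0.26 in the same comparisons, so the 2 primase subunits had opposite signs. Pola2, the accessory subunit of polymerase alpha, had 264 CPM in δKO replicate 1 and 74.5 to 146 CPM in the other 8 libraries. The subunits of the lagging strand polymerase, Pold1, Pold2 and Pold3, had TKO log2 fold changes from 0.063 to 0.30 against WT and from -0.23 to 0.71 against δKO. Pole2, an accessory subunit of the leading strand polymerase, had a log2 fold change of -0.45 in both TKO and δKO against WT. Pole, the catalytic subunit of the same enzyme, was at 148 to 193 CPM in WT and 162 to 182 CPM in TKO, and at 127 to 144 CPM in δKO.

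The clamp and its loader were close to even. Pcna (chr2:132249162-132253314, minus strand), the sliding clamp, had 327, 359 and 401 CPM in WT, 448, 415 and 366 in δKO, with 253, 486 and 313 in TKO. The TKO libraries held both the highest and the lowest Pcna value of the 9. The annotation holds 2 pseudogene copies of Pcna, which could take or give reads. Rfc2 (chr5:134581366-134601805, plus strand), of the clamp loader, had 65.2, 71.8 and 66.4 CPM in WT, 57.6, 63.8 and 50.4 in δKO, with 100, 89.4 and 72.6 in TKO. All TKO values of Rfc2 were above all others, by 0.61 on the log2 scale against δKO (SE 0.25, adjusted p = 0.465) and by 0.37 against WT. The other 4 loader genes ran from -0.34 to 0.038 against WT and from -0.014 to 0.22 against δKO.

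On the lagging strand, Lig1 (chr7:13277283-13311433, plus strand), the ligase that seals nicks, had 299, 218 and 263 CPM in WT, 333, 288 and 324 in δKO, with 285, 262 and 221 in TKO. TKO overlapped WT and lay below δKO, with a log2 fold change of -0.30. Fen1 (chr19:10199132-10204169, minus strand), the nuclease that trims flaps, was nearly without counts in a data set where its partners were abundant. It had 32, 18 and 18 counts in WT, 0, 78 and 3 in δKO, with 1, 117 and 1 in TKO. In the annotation used here 84.2% of its exon bases are shared with the antisense gene Gm10143 (chr19:10198368-10202384, plus strand), itself at 1 to 90 counts. Reads of genes that overlap cannot be assigned with certainty without strand, so the level of Fen1 and its fitted log2 fold changes are uncertain. The single-strand binding genes ran from -0.24 to 0.27 in TKO against WT and from 0.12 to 0.70 against δKO. Rpa1, the large subunit, had 63.1, 70.3 and 54.1 CPM in WT, 45.5, 62.5 and 35.3 in δKO, with 58.5, 93.2 and 51.6 in TKO, with overlap between all groups. Rpa2, the middle subunit, had 23.0 to 41.1 CPM in δKO, against 37.3 to 65.9 CPM in TKO and 33.1 to 55.3 CPM in WT, and all 3 overlapped. Rpa3, the small subunit, was lowest in δKO replicate 1 at 2.83 CPM and otherwise between 5.51 and 13.9 CPM.

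Nucleotide supply split by enzyme. Rrm1 (chr7:102441695-102469771, plus strand), the large subunit of ribonucleotide reductase, had 260, 217 and 223 CPM in WT, 235, 276 and 213 in δKO, with 166, 178 and 181 in TKO. The TKO libraries were below all others and close to each other, with a coefficient of variation of 4.4%, the lowest of any member in TKO. The log2 fold change was -0.46 against δKO (SE 0.21, adjusted p = 0.482) and -0.42 against WT (SE 0.21, adjusted p = 1.0). Rrm2, the small subunit that limits the enzyme in S phase, had 156, 115 and 112 CPM in WT and 43.6, 99.7 and 44.3 in TKO, without overlap, while δKO ran from 31.8 to 172 CPM. Its log2 fold change against WT was -1.03 (SE 0.53, adjusted p = 1.0). Tyms (chr5:30058202-30073617, minus strand), which makes thymidylate, had 78.4, 71.9 and 96.9 CPM in WT, 232, 91.4 and 89.7 in δKO, with 71.6, 85.3 and 61.5 in TKO. The TKO libraries overlapped WT and were below δKO, by -0.92 on the log2 scale (SE 0.37, adjusted p = 0.465) and by -0.32 without δKO replicate 1. Tyms has 1 pseudogene copy in the annotation. Thymidine kinase Tk1, which salvages thymidine, had values of 0.53 against WT and 0.52 against δKO, and Dut, which clears dUTP, had -0.050 and 0.038. So 3 of the 5 genes were below 0 against both controls, with a median of -0.18 against WT and -0.46 against δKO.

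The chromatin genes overlapped between the groups for the most part. Dnmt1 (chr9:20907209-20959888, minus strand), which copies DNA methylation behind the fork, had 893, 600 and 677 CPM in WT, 588, 692 and 1276 in δKO, with 854, 593 and 588 in TKO. The δKO library without a number was the highest and the groups overlapped. Slbp, which binds histone mRNA, was 62.8 to 88.0 CPM in TKO and 89.3 to 126 CPM in δKO, without overlap (log2 fold change -0.49, SE 0.26, adjusted p = 0.543). Uhrf1, which recruits Dnmt1, and the chromatin assembly genes Chaf1a and Chaf1b had log2 fold changes from -0.16 to 0.47 against WT. Chaf1a shares 52.5% of its exon bases with Ubxn6 on the opposite strand and is uncertain for the reason given for Gins2. Of the G1/S control genes, E2f1 (chr2:154559407-154569892, minus strand), an activator of the program, had 36.9, 26.7 and 43.3 CPM in WT, 97.8, 31.2 and 40.6 in δKO, with 56.0, 55.3 and 28.1 in TKO. The groups overlapped for E2f1, and its log2 fold change was 0.38 against WT and -0.28 against δKO. Ccne1 had 3.01 to 5.69 CPM in WT and 1.48 to 2.18 in TKO without overlap (log2 fold change -1.14 in the fit), and 0.479 to 7.89 CPM in δKO. Ccne2 had -0.12 against WT.

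Members with and without the E2F-type word were compared by their medians only, with E2f1 counted as without it. In TKO against WT the 15 genes with the word had a median of -0.16 and the 26 without it -0.049, and in TKO against δKO the medians were -0.23 and -0.066. In δKO against WT they were 0.20 and -0.017, in the opposite order. The ranges overlapped, from -0.55 to 0.18 with the word and from -1.14 to 1.38 without it against WT.

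Other genes of replication, on a list of 54 that are not members, were also without an edgeR call. DESeq2 called 1 in each TKO comparison, Fbxo5 against WT on the 6 libraries compared (adjusted p = 0.0331) and Tfdp1 against δKO on all 9. There it called 2.12% and 2.01% of all genes. The other DESeq2 fit called 0 in each, with a lowest adjusted p of 0.152 against WT and 0.137 against δKO. Fbxo5, an inhibitor of the anaphase promoting complex, is named here after its value was seen. Against WT their median in TKO stood at -0.19 on the log2 scale, and against δKO at -0.26 (-0.066 and -0.22 in the members), with 36 and 37 of 54 below 0. At an unadjusted p under 0.05, edgeR found 3 lower and 1 higher against WT (7.41%, against 4.19% of all genes) and 6 lower against δKO (11.1%, against 10.2% of all genes in either direction and 5.56% lower). Wdhd1, which links helicase and polymerase, had 93.6 ± 7.62 CPM in WT against 52.1 ± 12.6 in TKO (SD, n = 3), a log2 fold change of -0.85 (SE 0.28) whose adjusted p by edgeR was 1.0. E2f8, a repressor of E2F targets, had the same size of change, -0.85, with the same adjusted p. Tfdp1, the binding partner of the E2F factors, had 525 ± 238 CPM in δKO, 230 ± 35.3 in WT and 208 ± 33.1 in TKO (SD, n = 3), and differed by -1.33 in TKO against δKO (edgeR adjusted p = 0.465, DESeq2 on all 9 libraries 0.0279).

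Mitosis genes, a list of 20 drawn up with results of these data known, gave larger differences in the same libraries. Against WT their median in TKO stood at -0.68 on the log2 scale, and against δKO at -0.77, with 20 of 20 below 0 in both. At an unadjusted p under 0.05 edgeR found 10 lower in the first comparison and 13 in the second, which is 50% and 65% of the list, against 2.5% and 5.56% of all genes. With 1 library left out these counts ran from 5 to 14 against WT, where the share of all genes in either direction ran from 2.46% to 7.61%, and from 7 to 17 against δKO, where it ran from 6.62% to 17.3%. The 14 and the 17 came without δKO replicate 1, beside 7.61% and 12.2% of all genes. The lowest against WT came without WT replicate 1, WT replicate 2 or TKO replicate 1, and the lowest against δKO without TKO replicate 3 or the δKO library without a number. edgeR called none of them, and DESeq2 on all 9 libraries called 1 and 4, where it called 0.466% and 2.01% of all genes, and on the 6 libraries compared it called 3 and 2, where it called 2.12% and 1.05%. All TKO libraries were below all WT libraries in 15 of the 20 and below all δKO libraries in 9, against 7.47% and 4.74% of all genes. Plk1, a mitotic kinase, had 87.7 ± 29.7 CPM in WT, 122 ± 35.6 in δKO, with 34.6 ± 2.29 in TKO (SD, n = 3). On the log2 scale Plk1 differed by -1.34 against WT and by -1.82 against δKO (edgeR adjusted p = 1.0 and 0.465, DESeq2 on all 9 libraries 0.0287 and 8.53e-05). Mki67, the common marker of cycling cells, had -0.66 and -0.74 in the same comparisons. Without δKO replicate 1 the mitosis median against δKO was -0.99, while that of the 49 members was -0.093. The summed level of the mitosis list was 3076 to 4298 CPM in WT, 3056 to 5227 in δKO and 2235 to 2452 in TKO, so TKO overlapped neither control, whereas in the summed level of the members it overlapped WT. The difference between both lists was not tested.

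**Figure D4:**
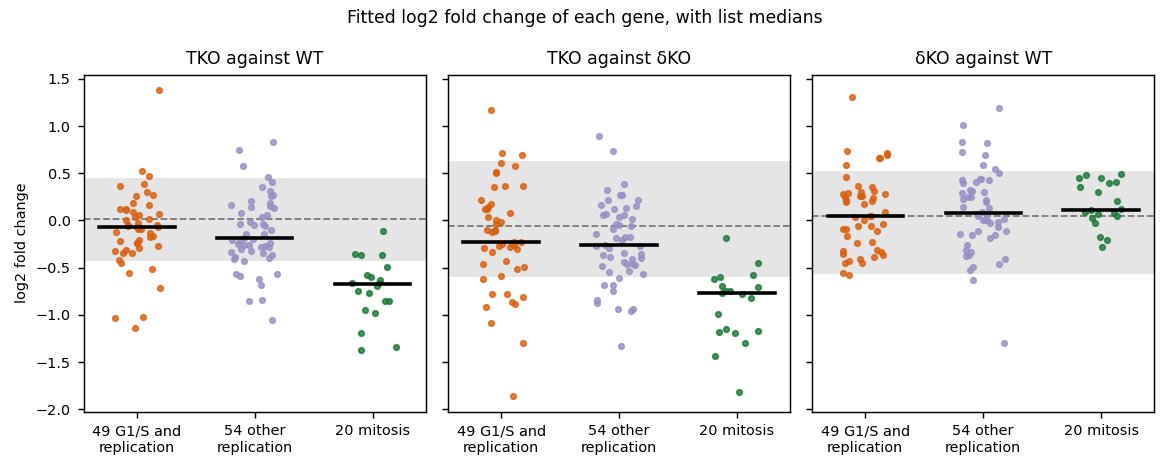
Fitted log2 fold change (y axis) of each gene of 3 lists in the 3 comparisons, with black bars at the list medians, a dashed line at the median of all genes and a grey band from the lower to the upper quartile of all genes. The members lie around the dashed line with medians of -0.066, -0.22 and 0.049, and all 20 mitosis genes lie below 0 in both TKO comparisons.

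Among CDK inhibitors and D-type cyclins with their kinases, 10 of 11 genes were tested. In TKO against WT 5 were below 0 and 5 above, and their median was 0.035, while in TKO against δKO 7 were below 0, with a median of -0.18. edgeR called 0, and DESeq2 called 1 against WT on the 6 libraries compared, Cdkn2c (adjusted p = 0.00229, and 0.755 on all 9), an inhibitor of Cdk4 and Cdk6 that is named after its value was seen. The summed level was 3163 to 4387 CPM in WT, 3252 to 4530 in δKO and 2547 to 3014 in TKO, so TKO lay below both, and Cdk6 made up most of it. Cdk6, a kinase of G1, had 2968 ± 646 CPM in WT, 2880 ± 336 in δKO, with 1866 ± 339 in TKO (SD, n = 3), with a log2 fold change of -0.67 against WT (SE 0.23) and of -0.63 against δKO. Its adjusted p by edgeR was 1.0 and 0.465. Cdkn1c, an inhibitor found in quiescent stem cells, had 10.7 ± 13.9 CPM in TKO and 1.73 ± 1.31 in WT (SD, n = 3), with overlap.

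**Figure D5:**
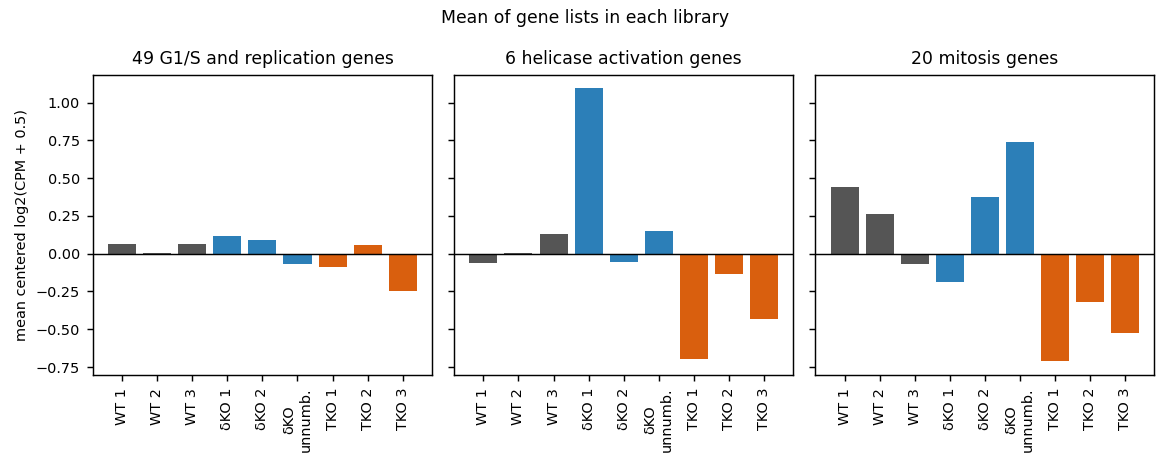
Mean of log2(CPM + 0.5), centered on each gene's mean over the 9 libraries (y axis), for 3 gene lists in each library (x axis). Grey bars are WT, blue δKO and orange TKO. The 49 genes stay between -0.25 and 0.12 in every library, and the helicase activation genes reach 1.096 in δKO 1. The mitosis genes are at -0.32 or lower in all 3 TKO libraries, and also below 0 in δKO 1 (-0.19) and WT 3 (-0.066).

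Levels of cell type markers varied between libraries, and edgeR called none of them in any comparison. In TKO against WT, DESeq2 called 2 LT-HSC markers on all 9 libraries (Fgd5 and Tie1, higher), where it called 0.466% of all genes. On the 6 libraries compared (2.12% of all genes) it called 3 LT-HSC (with Ctnnal1, higher) and 2 progenitor markers (Cd33 and Fcgr3, lower). There it also called 1 neutrophil marker (Mmp9, lower) and 1 T and NK cell marker (Nkg7, lower). In TKO against δKO it called 1 erythroid marker on all 9 libraries (Alas2, higher), where it called 2.01% of all genes. These are named by their calls. Of all genes, edgeR found 4.19% at an unadjusted p under 0.05 in TKO against WT. This share was 10.2% in TKO against δKO and 7.01% in δKO against WT, in either direction. The fitted log2 fold change of the LT-HSC markers in TKO against WT was above 0 in 12 of 12 genes, 3 of them at an unadjusted p under 0.05, with a median of 0.69. In δKO against WT it was above 0 in 11 of 12, with a median of 0.44, and in TKO against δKO in 9 of 12, with a median of 0.26. The summed level of the LT-HSC markers was 1404 to 1725 CPM in WT, 1462 to 3159 in δKO and 2029 to 2515 in TKO. Kit, Ly6a (Sca1) and Slamf1 (CD150) on this list encode proteins used in the sort. So do Flt3 (Flk2) and Cd48 on the progenitor list, so these genes are not independent of the sort. Progenitor markers, 10 genes that include Mpo, Elane and Flt3, had a summed level of 2925 to 12800 CPM in WT, 322 to 11460 in δKO and 218 to 3141 in TKO, with overlap between all groups. Their median log2 fold change was -2.02 against WT, with 9 of 10 below 0 and 2 at an unadjusted p under 0.05, and -1.69 against δKO, with 8 of 10 below 0 and 1 at an unadjusted p under 0.05. Neutrophil genes summed to 513 to 9492 CPM in WT, 120 to 1739 in δKO and 87.8 to 593 in TKO, and 10 of 10 had a fitted value below 0 in TKO against WT, 7 at an unadjusted p under 0.05. In δKO against WT 10 of 10 were also below 0, with a median of -1.96 and 2 at an unadjusted p under 0.05, and in TKO against δKO 9 of 10 were, with 0 at an unadjusted p under 0.05. The highest sum was that of WT replicate 3, and WT replicate 1, at 513 CPM, was below TKO replicate 2, at 593 CPM. Summed erythroid genes were 8.65 to 161 CPM in WT, 16.7 to 77.9 in δKO and 23.8 to 86.5 in TKO, and summed megakaryocyte genes 90.8 to 265, 109 to 253 and 99.8 to 237. Summed B cell genes stayed at or below 11.97 CPM in every library, summed macrophage genes at or below 65.6, and summed T and NK cell genes at or below 232, most of it from Nkg7. Of the T and NK cell genes, Cd3e had 0 counts in all 9 libraries, Trbc2 in 8, Ncr1 in 6 and Cd3d in 1, with at most 427 counts of Cd3d. Of the B cell genes, Ms4a1 had 0 counts in 8 libraries, Cd79a in 3 and Ebf1 in 2, while Cd79b had 195 to 613 counts in every library. Of the macrophage genes, C1qa, C1qb and C1qc had 0 counts in 7 libraries each and Adgre1 in 1, with at most 386 counts of Adgre1, while Cd68 had 1037 to 2006 counts in every library. Progenitors cycle more than LT-HSCs as a rule, and the part of such cells in the values of the replication and mitosis genes was not tested.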

How the data were processed

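The authors used STAR 2.5.1b to align trimmed paired-end reads (mouse, mm10) and deposited raw counts per gene for 47643 genes, used here as deposited. The deposited normalized values, the joining of the 2 technical runs of a library and the strand setting were not used or are not given in the sources used here. The replicate number of 1 δKO column matches no label, so it was used as a δKO library without a number. Symbols, positions and exon lengths came from GENCODE M21 for 47224 genes.

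Counts were tested with edgeR 4.0.16 (quasi-likelihood, TMM factors, 1 mean per genotype, all 9 libraries, biological coefficient of variation 0.805, 6 residual degrees of freedom) in R 4.3.3, after filterByExpr (count minimum 10). Adjusted p-values are Benjamini-Hochberg over 18205 genes. Alternatives were DESeq2 1.42.0, other scalings and filters, genes detected or Xist level as a covariate (the latter chosen after seeing the data), a replicate block and each library left out. The pipeline was tested on simulated data. Correlations between libraries gave no sign that replicate numbers pair them, which does not exclude it. Members and lists were chosen with earlier results of these data known. Values by library are given for members with an unadjusted p under 0.05 in any comparison and for the highest member of each role, with other members named for their place in a range. From the comparison lists at most 3 genes each were named.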

Additional observations from a re-analysis of the deposited data

How the results depend on the processing

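In every comparison 0 members were called under all 22 alternatives. The median log2 fold change of the members stayed below 0 in TKO against WT, from -0.132 to -0.001 when 1 library was left out, and in TKO against δKO, from -0.251 to -0.081 when 1 library was left out and -0.073 with upper-quartile scaling, where the median of all genes moved from -0.055 to 0.083. In δKO against WT it changed sign, with -0.095 under upper-quartile scaling, -0.039 with at least 10 counts in every library, -0.046 with genes detected per library as a covariate, and -0.046 to 0.147 when 1 library was left out. The cause was not tested. With the Xist level of each library as a covariate, which was added once the data had been seen, the medians were -0.136, -0.213 and 0.001. The number of members at an unadjusted p under 0.05 ran from 0 to 5 in TKO against WT, from 1 to 9 in TKO against δKO and from 0 to 2 in δKO against WT. The share of all genes moved with it: the 5 stood beside 9.09% with only the groups compared, the 9 beside 17.3% without δKO replicate 2 and the 1 beside 5.55% with only the groups compared.

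Signs of single genes held in both TKO comparisons for the 7 genes with values by library and unadjusted p under 0.05. In δKO against WT, Rrm1 went from 0.049 to -0.095 with upper-quartile scaling, to -0.034 with at least 10 counts in every library, and to between -0.055 and 0.134 when 1 library was left out. Prim2 went from 0.369 to -0.178 with genes detected as a covariate, and Cdc45 from 0.261 to between -0.151 and 0.442 when 1 library was left out. With the replicate number as a block, the medians were -0.097, -0.141 and 0.096 in the 3 comparisons, and 0 members were called. Prim2 was -0.076 in δKO against WT, and 12 and 6 of the 20 mitosis genes were at an unadjusted p under 0.05 in the TKO comparisons. The δKO library without a number shares its block with no other library. Its block therefore takes up its values, and the comparisons with δKO in this fit rested on the numbered δKO libraries. The same-number correlations of deviations from the genotype mean ran from -0.036 to 0.083, and those of all other pairs from -0.092 to 0.12. These gave no sign that the numbers pair the libraries, but with 3 libraries a group they cannot exclude it.

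With 3 libraries a group, the median half-width of a member's interval (0.79 on the log2 scale against WT) limits what could be seen.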
